A study of Mus musculus with 10 samples.

Results

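Messenger RNA of 3 FoxO transcription factors (Foxo1, Foxo3 and Foxo4) and of 4 genes described as FoxO targets (Trim63, Fbxo32, Sesn1 and Gadd45a) was followed in whole heart tissue of male mice. These 7 genes were chosen by their FPKM, a read density scaled by transcript length and library depth, in the same comparison of PAMH with control hearts that is described here, so their differences between the groups are given as a description, without a p-value. The deposited table held 55335 genes, and 9439 of them, with a mean of at least 1 FPKM, were tested. All 7 members were in the table and above that filter. The control group was 5 wild-type hearts of male offspring whose dams received phosphate-buffered saline while pregnant (labelled prenatal vehicle), and the PAMH group was 5 wild-type hearts of male offspring exposed before birth to anti-Müllerian hormone (labelled prenatal AMH). The labels do not give strain, age, litter or the time of tissue collection. The p-values set the difference between the groups against the spread between these samples, part of which may be technical. Exposure was before birth, so hearts of the same litter would not be independent, and the number of litters is unknown.

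FoxO proteins are forkhead transcription factors that insulin and growth factors restrain. When the kinase AKT is active it phosphorylates them, 14-3-3 proteins bind them and they leave the nucleus; when it is inactive they enter the nucleus and turn on target genes. In striated muscle the best known targets are Trim63 (MuRF1), a RING ubiquitin ligase of the sarcomere, and Fbxo32 (atrogin-1, MAFbx), the substrate-binding part of an SCF ubiquitin ligase, both of which mark muscle wasting. Much of this control acts on the location of the protein, which a measurement of mRNA does not show.

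The 10 libraries had FPKM sums of 654350 to 717453, and the number of reads behind them is unknown. PAMH replicate 4 had the fewest genes above 0 (16113, against 18037 to 21097 in the others) and the highest hemoglobin sum (859 FPKM, against 97.1 to 436 FPKM). Genes of the mitochondrial genome held 55.3% to 56.8% of the FPKM in control hearts and 51.5% to 56.6% in PAMH hearts. In the fit over all genes (limma on log2(FPKM + 1), Benjamini-Hochberg adjusted p under 0.05), 467 genes were higher and 117 lower in PAMH hearts. That is 6.19% of the genes tested, with 4.95% higher and 1.24% lower. The balance depended on scaling, with 218 higher and 212 lower under median ratio scaling and 234 and 246 under quantile normalization. On the deposited scale 2264 of the 9439 genes had an unadjusted p under 0.05 in limma, and 6352 had a positive log2 fold change.

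Of the 7 members, 5 (Foxo1, Foxo3, Trim63, Fbxo32 and Sesn1) were lower in PAMH hearts and past the threshold of that fit, and Foxo4 and Gadd45a were not past it. The same 5 had every PAMH value below every control value, as 1.71% of all genes tested did. Since the comparison chose the members, nothing is read from these counts against the background.

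**Figure D1:**
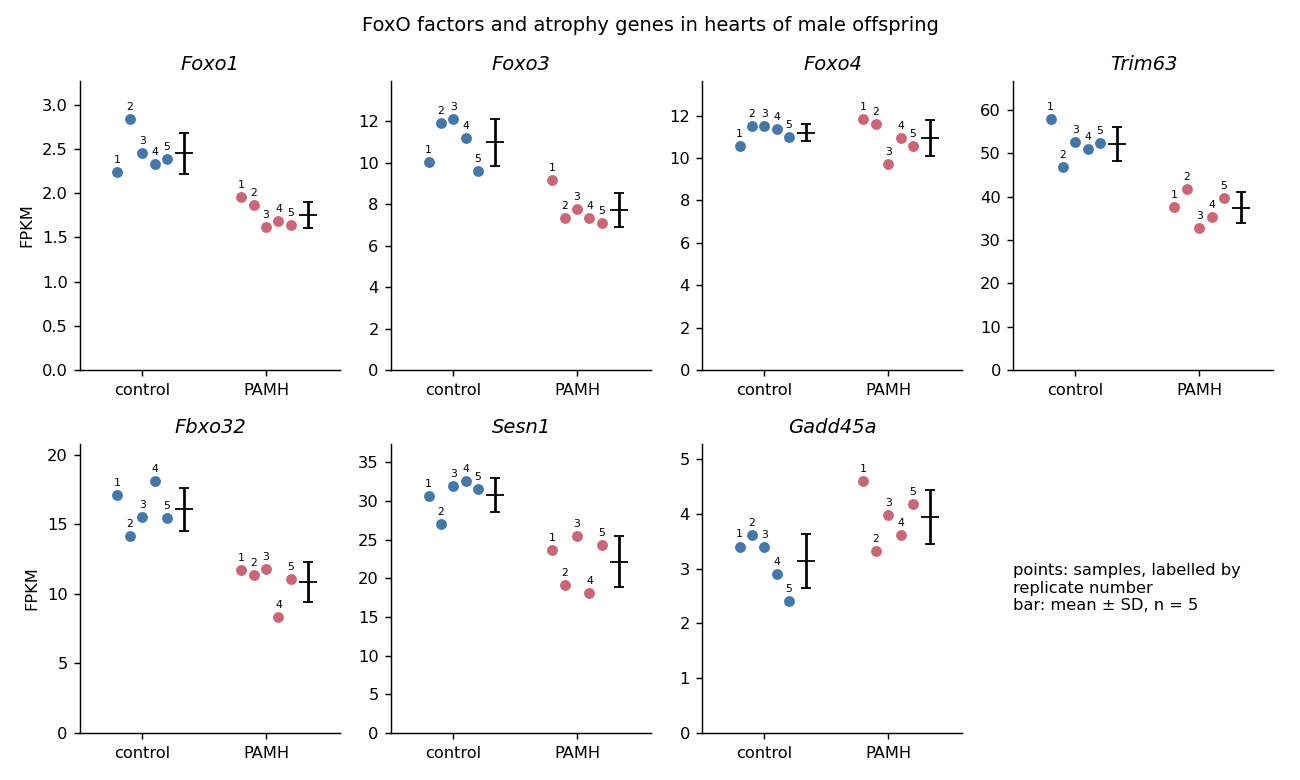
FPKM of the 7 members in each heart (vertical axes start at 0); points are samples with their replicate number, and the bar beside each group is the mean ± SD of 5 samples. The groups are apart for Foxo1, Foxo3, Trim63, Fbxo32 and Sesn1 and overlap for Foxo4 and Gadd45a.

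Foxo3, the FoxO factor most studied in muscle wasting and autophagy (ENSMUSG00000048756, chromosome 10, 42181841 to 42276755, minus strand, GRCm38), had 10.06, 11.9, 12.1, 11.2 and 9.62 FPKM in control replicates 1 to 5. In PAMH replicates 1 to 5 it had 9.16, 7.32, 7.75, 7.35 and 7.09 FPKM. The highest PAMH value, in replicate 1, lay below the lowest control value, in replicate 5. The means were 10.99 ± 1.11 and 7.73 ± 0.832 FPKM (SD, n = 5 each), with a log2 fold change of -0.46 (SE 0.09).

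Foxo1, the factor best known for insulin-regulated gluconeogenic genes (ENSMUSG00000044167, chromosome 3, 52268336 to 52353221, plus strand), was the scarcest member. Its control values were 2.24, 2.84, 2.45, 2.32 and 2.39 FPKM and its PAMH values 1.96, 1.87, 1.62, 1.68 and 1.64 FPKM. The groups did not overlap, and control replicate 2 was the highest of all. The log2 fold change was -0.32 (SE 0.07), and with a pseudocount of 0.1 in place of 1 it was -0.46, since a pseudocount of 1 is large beside a level near 2 FPKM. The antisense gene Gm20402, inside Foxo1, averaged 0.0202 FPKM.

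Foxo4 (ENSMUSG00000042903, chromosome X, 101254528 to 101260873, plus strand) did not follow the other FoxO genes. It had 10.6, 11.5, 11.5, 11.4 and 10.98 FPKM in control hearts and 11.9, 11.6, 9.71, 10.9 and 10.6 FPKM in PAMH hearts. The PAMH values surrounded the control range, with PAMH replicate 1 the highest and PAMH replicate 3 the lowest of the 10. The log2 fold change was -0.03 (SE 0.07), and its sign turned once all sample sums were made equal (0.01).

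Because of these unequal differences the make-up of FoxO mRNA differed between the groups, a quantity that a common scaling factor of a sample does not alter. Foxo3 was 43.8% ± 2.0 of the summed FPKM of Foxo1, Foxo3, Foxo4 and Foxo6 in control hearts and 36.5% ± 2.49 in PAMH hearts (SD, n = 5 each). Foxo4 was 44.8% ± 1.35 and 51.7% ± 1.85, and Foxo1 9.77% ± 0.583 and 8.28% ± 0.189. Each of these 3 shares was apart in every sample, which is a description, since the comparison chose the members. The ratio of Foxo3 to Foxo4 ran from 0.877 to 1.05 in control and from 0.631 to 0.798 in PAMH hearts. The ratio of Foxo3 to Foxo1 overlapped, at 4.03 to 4.94 and 3.92 to 4.78. Foxo6, a FoxO gene known mainly from brain, was below the filter at 0.247 to 0.680 FPKM in control and 0.525 to 0.999 FPKM in PAMH hearts.

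The promoter of Trim63 is shown because it carries the core FoxO site and Trim63 is the ligase with the higher level in these hearts. RefSeq promoter windows (GRCm38.p6, 250 bases before to 50 after a gene's start) were found for 5 members (Foxo1, Foxo3, Trim63, Sesn1 and Gadd45a), and not for Foxo4 and Fbxo32. The motif GTAAACA, searched on both strands (reverse complement TGTTTAC), lay in windows of 2 of the 5, Trim63 and Sesn1. It occurred in 3.65% of all 32851 windows of 300 bases. The longer form GTAAACAA (reverse complement TTGTTTAC), which contains it, occurred in 1.23% of windows and lay in that of Trim63. The 250 bases before the Trim63 start (chr4:134314870-134315119, plus strand) read as follows, with the match, which begins at base -195 counted back from the start, in capitals.
Trim63: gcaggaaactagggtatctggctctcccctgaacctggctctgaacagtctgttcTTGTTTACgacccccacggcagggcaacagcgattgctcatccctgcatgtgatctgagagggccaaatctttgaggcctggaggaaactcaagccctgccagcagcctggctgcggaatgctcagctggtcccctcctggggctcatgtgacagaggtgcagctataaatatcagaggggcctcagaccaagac
Sesn1 has 2 RefSeq windows, and the match lay in the upstream one, beginning at base 23 of the transcript, as the 30 bases at chr10:41810584-41810613 (plus strand) show.
Sesn1: agaaccttctacTGTTTACcagccttttgg
The insulin response sequence CAAAACAA (reverse complement TTGTTTTG), another motif that FoxO proteins bind, was in no member's window and in 2.51% of all windows. These matches describe the letters of the windows and say nothing of binding in these hearts.

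Trim63 (ENSMUSG00000028834, chromosome 4, 134315120 to 134329629, plus strand) had the highest level of the members. Its values were 57.99, 46.97, 52.7, 50.9 and 52.3 FPKM in control hearts and 37.7, 41.8, 32.9, 35.3 and 39.7 FPKM in PAMH hearts. All PAMH values lay below the lowest control value, that of replicate 2. The means were 52.2 ± 3.96 and 37.5 ± 3.53 FPKM (SD, n = 5 each), 28.2% lower in PAMH hearts, with a log2 fold change of -0.47 (SE 0.08).

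The close relatives of Trim63 did not pass the test. Trim55 (MuRF2) and Trim54 (MuRF3) are RING ligases of the sarcomere and microtubules that form complexes with Trim63. Trim55 had 19.3 ± 1.07 FPKM in control and 23.3 ± 3.03 FPKM in PAMH hearts (log2 fold change 0.25, SE 0.09, limma adjusted p = 0.114). Trim54 had 87.3 ± 8.89 and 100.1 ± 10.7 FPKM (log2 fold change 0.19, SE 0.09, limma adjusted p = 0.214). Both had positive log2 fold changes under all 20 alternative settings, and Trim55 passed the threshold in 2 of them, those without PAMH replicate 3 and without PAMH replicates 3 and 4. The ratio of Trim63 to Trim55 was 2.27 to 2.95 in control and 1.32 to 1.77 in PAMH hearts. That of Trim63 to Trim54 was 0.458 to 0.694 and 0.308 to 0.424. Neither ratio overlapped between the groups, but both hold Trim63, which the comparison chose, so they are a description.

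Fbxo32 (ENSMUSG00000022358, chromosome 15, 58175879 to 58214932, minus strand) had 17.1, 14.2, 15.5, 18.1 and 15.5 FPKM in control hearts and 11.7, 11.3, 11.8, 8.36 and 11.1 FPKM in PAMH hearts. The groups were apart, and PAMH replicate 4 was well below the other PAMH hearts. The means were 16.1 ± 1.53 and 10.9 ± 1.43 FPKM (SD, n = 5 each), with a log2 fold change of -0.53 (SE 0.10), and of -0.45 without PAMH replicate 4. The antisense gene Gm15943, which starts within Fbxo32, averaged 0.861 FPKM, and without a stated strand setting reads of the shared stretch cannot be told apart. The ratio of Trim63 to Fbxo32 overlapped between the groups, at 2.82 to 3.39 in control and 2.78 to 4.22 in PAMH hearts.

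Other F-box genes of muscle are the substrate parts of further SCF ligases. Fbxo30 (MUSA1), described as a FoxO-dependent ligase of wasting muscle, had 2.89 ± 0.276 and 2.84 ± 0.360 FPKM, with a log2 fold change of -0.02 that turned to 0.01 once sample sums were made equal. Fbxo21 (SMART) had 4.33 ± 0.597 and 4.83 ± 0.941 FPKM, Fbxo40, a muscle F-box gene that targets the insulin receptor substrate IRS1, 37.2 ± 2.45 and 35.6 ± 5.68 FPKM, and Fbxo31 12.3 ± 1.09 and 10.5 ± 0.584 FPKM. None of these 4 passed the test (limma adjusted p = 0.895, 0.543, 0.704 and 0.128), though Fbxo31 was lower under median ratio scaling and quantile normalization (limma adjusted p = 0.0371 and 0.0217).

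**Figure D2:**
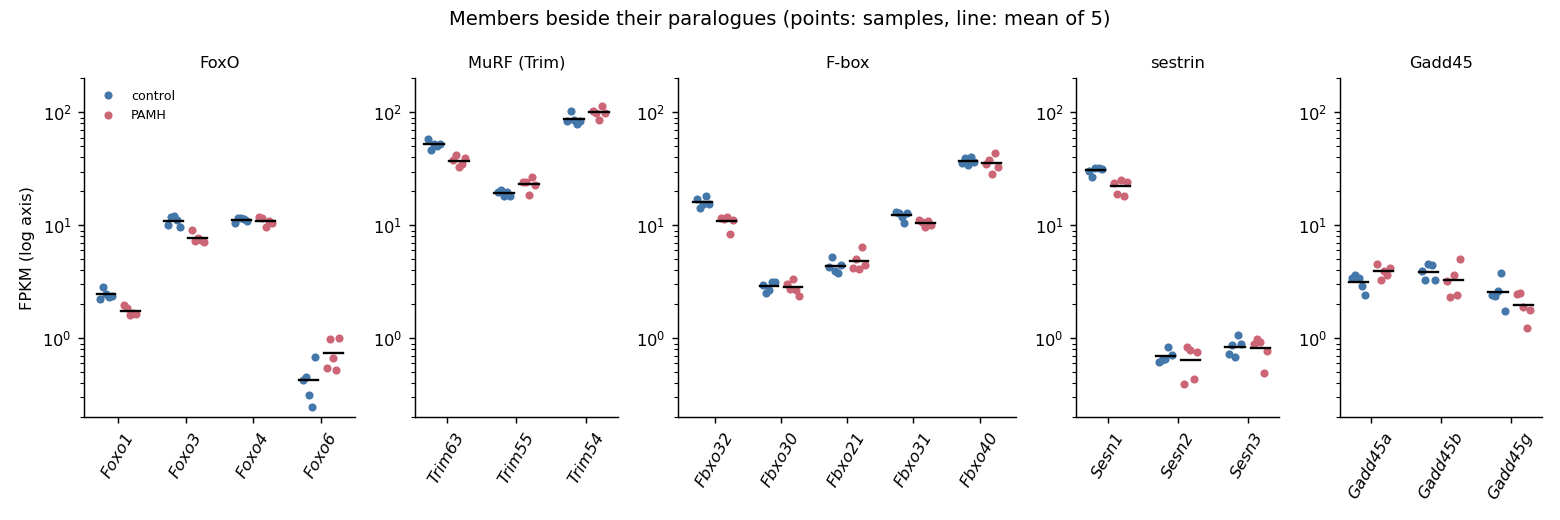
FPKM on a log axis of each member beside its paralogues or related F-box genes; points are samples and the line is the mean of 5. Foxo1 and Foxo3 but not Foxo4, Trim63 but not Trim55 or Trim54, Fbxo32 and Sesn1 were lower in every PAMH heart than in every control heart.

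Sesn1 encodes sestrin 1, a stress-induced protein that restrains the growth kinase complex mTORC1 and is a target of both FoxO and p53. The gene (ENSMUSG00000038332, chromosome 10, 41809935 to 41908424, plus strand) had 30.6, 27.0, 31.999, 32.5 and 31.5 FPKM in control hearts. In PAMH hearts it had 23.7, 19.1, 25.5, 18.1 and 24.3 FPKM. The highest PAMH value, in replicate 3, lay just below the lowest control value, in replicate 2. The means were 30.7 ± 2.20 and 22.1 ± 3.30 FPKM (SD, n = 5 each), with a log2 fold change of -0.46 (SE 0.10). Sesn1 was nearly all of the sestrin mRNA listed. Sesn2, the sestrin of the amino acid response, had 0.621 to 0.842 FPKM in control and 0.395 to 0.843 FPKM in PAMH hearts. Sesn3, another FoxO target, had 0.682 to 1.07 and 0.495 to 0.997 FPKM, and both were below the filter and not tested.

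Gadd45a, a growth arrest and DNA damage gene that in skeletal muscle is induced in denervation (ENSMUSG00000036390, chromosome 6, 67035096 to 67037457, minus strand), went the other way. It had 3.40, 3.61, 3.39, 2.89 and 2.40 FPKM in control and 4.59, 3.32, 3.97, 3.61 and 4.18 FPKM in PAMH hearts. The groups overlapped, since PAMH replicate 2 lay below 3 control values. The log2 fold change was 0.26 (SE 0.10), and it was positive in all 19 other settings in which the gene was tested and past the threshold in none. Its paralogues Gadd45b (3.90 ± 0.622 and 3.32 ± 1.09 FPKM) and Gadd45g (2.597 ± 0.746 and 1.98 ± 0.525 FPKM) had log2 fold changes of -0.21 and -0.27 and did not pass (limma adjusted p = 0.437 and 0.306). The antisense transcript E230016M11Rik over Gadd45a averaged 0.0331 FPKM.

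In both groups the order of levels began with Trim63 and Sesn1. In control hearts Fbxo32 followed, then Foxo4 and Foxo3, whose values overlapped, then Gadd45a and Foxo1, whose values also overlapped. In PAMH hearts Foxo4 and Fbxo32 shared the third place, at means of 10.94 and 10.86 FPKM and with Foxo4 the higher in 3 of 5 hearts. Foxo3 came next, its highest value above the lowest of Fbxo32, and then Gadd45a and Foxo1, which did not overlap.

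The fold changes of the members kept their sign in every alternative setting except for Foxo4. Trim63 was past the threshold in 20 of 20 alternatives, Foxo3 and Fbxo32 in 19 of 20, Sesn1 in 15 of 20 and Foxo1 in 13 of 19. Foxo1 missed it with sample sums made equal and without control replicate 3 or 5, PAMH replicate 5 or PAMH replicates 4 and 5 and with the replicate block, and Sesn1 without control replicate 1, 3, 4 or 5 and with no filter. Foxo3 missed it without PAMH replicates 4 and 5, and Fbxo32 with the replicate block. Across 3 other scalings and the omission of mitochondrial genes, the log2 fold change ran from -0.60 to -0.42 for Trim63, from -0.66 to -0.49 for Fbxo32, from -0.57 to -0.41 for Foxo3, from -0.59 to -0.42 for Sesn1 and from -0.39 to -0.29 for Foxo1. The median over all genes tested was 0.07 on the deposited scale. Since the same comparison chose the members, passing was favoured in every setting. The counts of settings passed show only how the calls depend on processing and are not evidence of a difference.

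**Figure D3:**
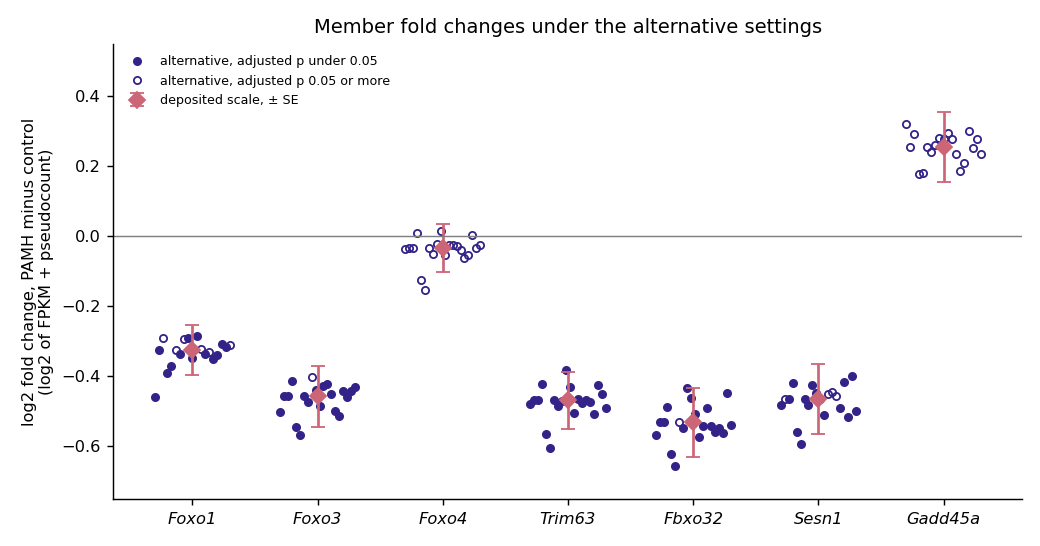
Log2 fold change (PAMH minus control) of each member: diamonds with bars are the deposited scale ± SE, and circles are the alternative settings in a fixed order from left to right, filled where the adjusted p was under 0.05. The circles of Foxo1, Foxo3, Trim63, Fbxo32 and Sesn1 lie below 0 and those of Gadd45a above it, while those of Foxo4 lie on both sides. The filling shows dependence on the setting only, since the comparison chose the members.

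Genes that act on FoxO proteins showed no call in the fit of all 10 samples on the deposited scale. Of 38 such genes, among them insulin receptor signalling, AKT and SGK kinases, 14-3-3 proteins, AMPK, sirtuins and acetylases, 31 were tested. Of the 31, 0 passed (limma adjusted p under 0.05), beside 6.19% of all genes tested. In limma 7 of them had an unadjusted p under 0.05, beside 2264 of all 9439 genes. The median log2 fold change of the 31 was 0.04, beside 0.07 over all genes tested. The kinase gene Akt1 had 31.2 ± 2.71 and 38.5 ± 3.59 FPKM (log2 fold change 0.29, SE 0.08, limma adjusted p = 0.0538), with PAMH replicate 4 the highest at 44.7 FPKM, and passed in 4 of 20 other settings, including that without PAMH replicate 3. Akt2, the AKT gene of insulin-stimulated glucose uptake, had 21.0 ± 1.49 and 21.2 ± 2.89 FPKM. The AMPK gene Prkaa2 passed, higher in PAMH hearts, without PAMH replicate 4, without PAMH replicates 4 and 5, and without PAMH replicates 3 and 4.

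Among receptors and their adaptors, Insr (insulin receptor) had 6.43 ± 0.405 and 5.12 ± 1.14 FPKM and Irs1 2.24 ± 0.347 and 1.36 ± 0.537 FPKM. Neither overlapped between the groups, yet neither passed (limma adjusted p = 0.170 and 0.0813), and neither did so in any alternative setting. Irs2, itself a FoxO target, had 1.32 ± 0.111 and 1.58 ± 0.491 FPKM, and Igf1r was below the filter at 0.938 ± 0.141 and 0.714 ± 0.0865 FPKM. Mdm2, a ligase of p53 and of FoxO, had 4.55 ± 0.365 and 5.48 ± 0.395 FPKM (limma adjusted p = 0.0860). It passed in 1 of 20 other settings, that without PAMH replicates 3 and 4, and was higher there. The deacetylase Sirt1 had 1.36 ± 0.109 and 1.01 ± 0.459 FPKM, and the acetylase Ep300 2.02 ± 0.0886 and 1.84 ± 0.337 FPKM (limma adjusted p = 0.297 and 0.533).

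Of 29 other genes described as FoxO targets 22 were tested, of which 5 were lower, 1 was higher and 16 did not pass, with a median log2 fold change of -0.18. That is 27.3% called, beside 6.19% of all genes tested. In limma 13 of the 22 had an unadjusted p under 0.05, beside 2264 of all 9439 genes. The list was drawn up with earlier results of these data known, and Txnip, Pdk4, Cdkn1a and Bnip3 were among those results. Neither its share of calls nor its direction is therefore independent evidence. The pyruvate dehydrogenase kinase gene Pdk4 fell by 2.88 on the log2 scale, Txnip, which restrains glucose uptake, fell by 1.53, and the cell cycle inhibitor gene Cdkn1a fell by 1.11 (limma adjusted p = 0.000115, 2.84e-05 and 0.0131). The call of Cdkn1a was lost with no filter (limma adjusted p = 0.0616), and those of Pdk4 and Txnip were made under all 20 alternatives. The upstream window of Txnip also held GTAAACAA, beginning at base -121, and the 60 bases around it (chr3:96557810-96557869, plus strand, match in capitals) are shown beside that of Trim63 because these were the 2 windows with the longer motif among members and called list genes.
Txnip: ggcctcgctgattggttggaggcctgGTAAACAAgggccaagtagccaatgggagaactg

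Gabarapl1, an autophagosome protein gene and a known FoxO3 target in muscle, had 34.9, 34.6, 34.5, 38.3 and 32.9 FPKM in control hearts and 26.1, 25.3, 27.3, 22.2 and 28.3 FPKM in PAMH hearts. The groups did not overlap (log2 fold change -0.43, SE 0.08, limma adjusted p = 0.00864), and the call was lost with the replicate number as a block (adjusted p = 0.0516). Ccng2, which encodes the growth-restraining cyclin G2, had 2.17, 2.08, 1.98, 2.55 and 1.99 FPKM in control and 1.42, 1.09, 1.68, 1.50 and 1.56 FPKM in PAMH hearts, again apart. Its log2 fold change was -0.37 (SE 0.08, limma adjusted p = 0.0252), and it passed in 12 of 19 other settings, not with no filter or the replicate block, nor without control replicate 1, 3, 4 or 5 or PAMH replicate 1.

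Of 20 autophagy genes tested, Gabarapl1 was lower, Bnip3 was higher and 18 did not pass. That is 10% called, beside 6.19% of all genes tested. The 20 had 13 positive and 7 negative log2 fold changes and a median of 0.11. Over all 9439 genes tested, 6352 were positive and the median was 0.07. Bnip3, a mitophagy receptor, rose by 0.55 on the log2 scale (limma adjusted p = 0.0214). Its lowest PAMH value was that of replicate 4 (65.3 FPKM, inside the control range of 51.2 to 66.5 FPKM) and the other PAMH hearts had 90.3 to 105.5 FPKM. It passed in 13 of 20 other settings, not under median ratio scaling, quantile normalization, no filter or the replicate block, nor without control replicate 3 or PAMH replicate 1 or 5. Map1lc3b (LC3B), another FoxO3 target, had 16.5 ± 4.35 and 23.5 ± 4.08 FPKM (limma adjusted p = 0.0880), Map1lc3a 234.9 ± 19.7 and 282.6 ± 40.5 FPKM (0.134) and Atg5 6.20 ± 0.950 and 7.56 ± 0.130 FPKM (0.0988). The balance of the list turned with the setting. Under median ratio scaling and under quantile normalization 0 autophagy genes were higher and 2 lower (Gabarapl1 and Sqstm1, an autophagy receptor gene), while without PAMH replicate 3, 4 were higher and 1 lower. Of the further FoxO targets, Ppargc1a (17.8 ± 4.54 and 12.8 ± 2.25 FPKM) and Zfand5 (3.78 ± 1.37 and 5.37 ± 0.883 FPKM) did not pass.

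Ubiquitin ligases of striated muscle other than the members had no call among 14 tested, beside 6.19% of all genes tested. Of the 14, 4 had an unadjusted p under 0.05 in limma, and their median log2 fold change was -0.02. Mul1, a ligase of the mitochondrial outer membrane, had 9.08 ± 0.488 and 11.2 ± 1.81 FPKM (limma adjusted p = 0.127). Under median ratio scaling and under quantile normalization 1 was lower (Fbxo31) and 0 were higher, while without PAMH replicate 3, 3 were higher (Trim55, Mul1 and Asb2) and 0 lower. The SCF core partners of Fbxo32 with ubiquitin and its conjugating enzymes had 0 calls among 11 tested, beside 6.19% of all genes tested. They had 7 with an unadjusted p under 0.05 in limma, 10 positive log2 fold changes and a median of 0.21. Over all 9439 genes, 2264 had an unadjusted p under 0.05 in limma and 6352 had a positive log2 fold change, with a median of 0.07. Skp1a, the adaptor that holds Fbxo32 in its complex, had 38.6 ± 2.0 and 46.7 ± 4.55 FPKM (limma adjusted p = 0.0647). Ube2d1 and Ube2d3, conjugating enzymes that can serve such ligases, had log2 fold changes of 0.26 and 0.31 (limma adjusted p = 0.0888 and 0.101). Under quantile normalization 1 gene of this group was lower (the ubiquitin gene Ubb), and without PAMH replicate 3 Skp1a and Ube2d1 were higher.

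Other regulators of Trim63 and Fbxo32 had 0 calls among 13 tested (1 with an unadjusted p under 0.05 in limma), beside 6.19% called of all genes tested. Klf15, a glucocorticoid-induced factor that acts with FoxO1 on both genes, had 18.7 ± 1.76 and 15.1 ± 1.13 FPKM without overlap (log2 fold change -0.29, SE 0.08, limma adjusted p = 0.0528), and the call was made under 7 of 20 alternatives. The glucocorticoid receptor gene Nr3c1 had 5.71 ± 0.513 and 6.71 ± 1.11 FPKM (limma adjusted p = 0.296). Atf4 and Smad2 had log2 fold changes of 0.28 and 0.30 (limma adjusted p = 0.220 and 0.230). The myogenic factor gene Myog and the growth inhibitor gene Mstn were among 6 genes of this list below the filter.

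Among 12 tested genes whose proteins are described as substrates or partners of the ligases, 1 was higher (Myh7, log2 fold change 1.07, limma adjusted p = 0.00223) and 11 did not pass. That is 8.33% called, beside 6.19% of all genes tested. Tnni3, cardiac troponin I and a described Trim63 substrate, had 1209 ± 61.1 and 1259 ± 231 FPKM. Eif3f, a translation factor subunit and described Fbxo32 substrate, had 31.9 ± 2.72 and 35.1 ± 5.23 FPKM. The intermediate filament genes Des (321.8 ± 38.9 and 387.8 ± 27.6 FPKM) and Vim (18.8 ± 3.67 and 23.3 ± 7.67 FPKM) and the troponin T gene Tnnt2 (401.6 ± 14.8 and 453.0 ± 47.2 FPKM) did not pass either (limma adjusted p = 0.0775, 0.429 and 0.199), though Des was higher without PAMH replicate 3. Substrate proteins were not measured.

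Partners of Sesn1 and Gadd45a gave few calls. Of 12 tested genes of the sestrin, GATOR2 and mTORC1 group 1 was higher, which is 8.33%, beside 6.19% of all genes tested. This was Sec13, a subunit of GATOR2 and of vesicle coats. Its values were 7.89, 9.58, 8.44, 8.85 and 7.56 FPKM in control and 11.7, 10.8, 9.50, 11.7 and 10.5 FPKM in PAMH hearts. Those values overlapped only between PAMH replicate 3 and control replicate 2 (log2 fold change 0.33, SE 0.08, limma adjusted p = 0.0372), and the gene passed in 6 of 20 other settings, its call lost under median ratio scaling, quantile normalization and omission of most single samples. Mtor (3.58 ± 0.353 and 4.29 ± 0.446 FPKM), Keap1 and Srxn1 had positive log2 fold changes of 0.21, 0.20 and 0.17 and did not pass. Of 6 tested Gadd45 paralogues and partners 0 passed, and 0 had an unadjusted p under 0.05 (limma), beside 584 and 2264 of all 9439 genes. With no filter 10 of this Gadd45 group were tested, and 2 (Cdk1 and Ccnb1) were lower. Map3k4, the kinase that Gadd45 proteins activate, had a log2 fold change of 0.13. Sesn1 and Gadd45a are also p53 targets, and of 7 other genes of that class tested 1 was lower, Cdkn1a, while 6 did not pass. That is 14.3% called, beside 6.19% of all genes tested. Trp53inp1 had 1.70 ± 0.389 and 0.955 ± 0.358 FPKM and Phlda3 4.25 ± 0.463 and 6.35 ± 1.52 FPKM (limma adjusted p = 0.0585 and 0.0734). Trp53inp1 was lower and Phlda3 higher without PAMH replicate 3.

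Over all lists together 140 of 173 genes other than the members were tested. Of these 3 were higher and 5 lower, which is 5.71%, beside 6.19% of all genes, and their balance depended on the setting. There were 1 higher and 8 lower under median ratio scaling and 1 higher and 10 lower under quantile normalization. Without PAMH replicate 3 there were 16 higher and 7 lower, without control replicate 2, 7 and 6, and without control replicate 3 or PAMH replicate 1, 1 and 4.

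Whether members tracked each other from heart to heart was examined on deviations from the group means of log2(FPKM + 1), which do not use the difference between the groups. Of 21 pairs over the 10 samples, 13 had a positive Pearson r and the median r was 0.10. The highest was that of Foxo1 with Foxo4 (r = 0.74, exact permutation p = 0.0114, adjusted p = 0.141 over 21 pairs; Spearman rho = 0.90, exact permutation p = 0.00118, adjusted p = 0.0248; 2-sided), and it was 0.79 without control replicate 2 and PAMH replicate 1. Under quantile normalization r was 0.43 (exact permutation p = 0.171, adjusted p = 0.542), under median ratio scaling 0.68, and with sample sums made equal 0.83. On the deposited scale the rank correlation passed and Pearson's r did not, for 2 genes of which 1 differed between the groups and the other did not. Next came Fbxo32 with Sesn1 (r = 0.71, exact permutation p = 0.0135, adjusted p = 0.141; rho = 0.64, exact permutation p = 0.0538, adjusted p = 0.416). This relation rested on the low values of control replicate 2 and PAMH replicate 4, without which r was 0.16. Foxo3 with Gadd45a followed (r = 0.67, exact permutation p = 0.0533, adjusted p = 0.342), with r = 0.51 without control replicate 3 and PAMH replicate 1. After it came Foxo1 with Foxo3 (r = 0.63, exact permutation p = 0.0651, adjusted p = 0.342), with r = 0.18 without control replicate 2 and PAMH replicate 1. Trim63 and Fbxo32, the paired markers of wasting, had r = 0.33 (exact permutation p = 0.419, adjusted p = 0.885; rho = 0.09, exact permutation p = 0.819, adjusted p = 0.906), and r was 0.52 without control replicate 2 and PAMH replicate 3. Foxo3 had r = -0.36 with Trim63 (exact permutation p = 0.339, adjusted p = 0.885; rho = -0.33, exact permutation p = 0.350, adjusted p = 0.874; r = -0.65 without control replicate 3 and PAMH replicate 1) and r = 0.09 with Fbxo32 (exact permutation p = 0.806, adjusted p = 0.889; rho = 0.18, exact permutation p = 0.648, adjusted p = 0.874; r = -0.06 without the same samples).

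**Figure D4:**
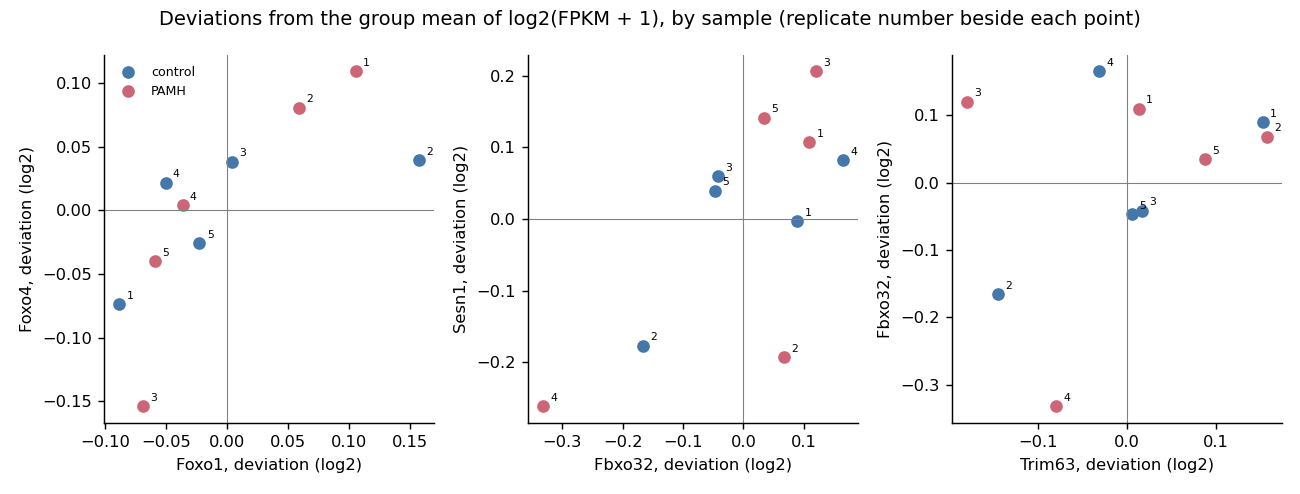
Deviations of single hearts from their group mean on the log2(FPKM + 1) scale for 3 pairs of members, with replicate numbers. Foxo1 and Foxo4 rise together, Fbxo32 and Sesn1 are drawn together mainly by PAMH replicate 4 and control replicate 2, and Trim63 and Fbxo32 show no clear relation (r = 0.33).

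The 3 genes most like each member in these deviations, by the highest Pearson r over 10 samples, are given with no test since they were picked as the highest. They were picked among the 9439 genes after leaving out those without a symbol or with a symbol of a predicted gene. For Foxo1 they were Nol6 (r = 0.95), Ipo5 (0.94) and Eif2b1 (0.94), for Foxo3 Rpap3 (0.92), Ndrg1 (0.90) and Bcr (0.89), and for Foxo4 Cadm4 (0.96), Alkbh5 (0.96) and Acadm (0.94). For Trim63 they were Tigar (0.92), Fgfr1 (0.92) and Nlrp10 (0.90), for Fbxo32 Serbp1 (0.98), Bche (0.98) and Tmod3 (0.97), for Sesn1 Psmc6 (0.97), Rps3a2 (0.97) and Mtrex (0.96), and for Gadd45a Clptm1l (0.95), Cd59b (0.94) and Slc25a24 (0.88). None of these genes was a member, and 1 of them, Tigar, passed the test between the groups, in the direction opposite to Trim63 (log2 fold change 0.48, limma adjusted p = 0.00371). The values share the libraries and their scale.

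Markers of the cells that a piece of heart can hold were set beside these differences. In bulk tissue fewer cells of a type and less RNA per cell cannot be told apart. The 6 cardiomyocyte markers (Tnnt2, Tnni3, Myh6, Actc1, Ryr2 and Pln), of the cells in which Trim63 and Fbxo32 are chiefly made, were all well above the filter and none passed. Their sum overlapped between the groups, at 6558 to 8242 FPKM in control and 5887 to 10466 FPKM in PAMH hearts. The ratio of Trim63 to Tnni3, a gene of cardiomyocytes, did not overlap, at 0.0357 to 0.0484 and 0.0217 to 0.0347. Since the comparison chose Trim63, this ratio is a description and not a test of cardiomyocyte content. The sum of 10 skeletal muscle markers, another source of both ligases, was 0.985 to 1.43 FPKM and 1.09 to 2.57 FPKM, with no marker above the filter and Myog listed at 0 in every heart. The sum of 7 endothelial markers, of cells rich in Foxo1, overlapped at 79.4 to 97.6 FPKM and 69.5 to 87.3 FPKM, though Cldn5 was lower (log2 fold change -0.88, limma adjusted p = 0.00200).

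The sum of 6 fibroblast markers overlapped as well, at 76.6 to 88.8 and 68.6 to 90.7 FPKM. Sums of smooth muscle markers (76.2 to 116 and 127 to 171 FPKM, of 6 genes with 1 higher, Acta2) and mesothelial markers (0.404 to 1.16 and 2.46 to 6.67 FPKM, of 5 genes with 1 tested and higher, Upk3b) did not overlap. Acta2 alone had 25.4 to 41.4 FPKM in control and 50.2 to 100.9 FPKM in PAMH hearts. The gap in the smooth muscle sum came from Acta2, and the sum of the other markers of that list overlapped between the groups. The sums of 6 macrophage markers (78.8 to 92.7 and 92.6 to 109.8 FPKM, with 1 higher, Cd68) met at their edges. The 5 erythroid markers summed to 112 to 437 and 97.3 to 863 FPKM and the 5 adipocyte markers to at most 1.21 FPKM. The part of these cell types in the differences of the members was not tested.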

How the data were processed

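Whole hearts of 5 control and 5 PAMH males were measured by RNA-seq, 1 column per sample, matched to the labels by the sample description. The authors deposited FPKM per Ensembl gene; the submitters' processing notes name build mm10 and, with no role, DESeq2 1.18.1, R 3.4.1, HISAT2 2.2.1, HTSeq 0.13.5, FastQC 0.11.9 and Trimmomatic 0.38. How the FPKM were made, with which annotation and strand setting, is not given in the sources. Values ran past 6 decimals in 97.3% of genes with more than 1 annotated transcript and in 0.612% of the others, so whole reads were not recovered and depth is unknown; no 2 columns were identical. GENCODE vM21 (GRCm38) named 55154 identifiers, and 181 were not found.

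FPKM were taken as log2(FPKM + 1), a scale that understates changes of low genes, and those averaging at least 1 FPKM were fitted across all genes with limma 3.58.1 in R 4.3.3 (group term, intensity trend, 2-sided, Benjamini-Hochberg threshold 0.05). In a test on simulated data for this comparison (9439 genes), 99% of 100 genes changed by 1 and 66% of 100 changed by 0.5 on the log2 scale were recovered, and 12 of 177 calls were false. Co-variation was tested by exact permutation within groups (14400 arrangements per pair, scipy 1.17.1). Genes named were the members, their paralogues and a fixed panel, every list gene past the threshold, up to 3 further genes of each list with the smallest p, and the 3 genes most alike each member. The members and lists were chosen with earlier results of these data known. Alternatives were 3 scalings, no filter or one at 5 FPKM, a pseudocount of 0.1, a replicate block, and leaving out the mitochondrial genes, each sample in turn, or 2 PAMH samples. Protein sequences were not used here. Figures were drawn with matplotlib 3.10.9.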

Additional observations from a re-analysis of the deposited data

Results flagged for a closer look

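In 8 of 110 groups of 5 samples examined for the named genes, 1 sample lay far from the other 4 by the range of the group, where chance gives about 1 in 20. Among the members this was Fbxo32 in PAMH replicate 4, at 8.36 FPKM (others 11.1 to 11.8 FPKM). The same heart had the highest PAMH value of Akt1, at 44.7 FPKM against 35.3 to 37.7 FPKM. Control replicate 2 was the highest of its group for Map1lc3a (269.8 FPKM, others 221.9 to 229.96 FPKM), Tnni3 (1314 FPKM, others 1162 to 1203 FPKM), Trim54 (102.6 FPKM, others 79.5 to 86.2 FPKM) and Zfand5 (6.18 FPKM, others 2.91 to 3.61 FPKM). Smad2 was highest in control replicate 5 (1.43 FPKM, others 0.563 to 0.717 FPKM) and Ube2d3 in control replicate 4 (8.26 FPKM, others 6.78 to 6.83 FPKM).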

How the results depend on the processing

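The count of all genes called, 584, was 264 with no filter, 239 with the replicate block, 357 without PAMH replicates 4 and 5, 1152 without PAMH replicates 3 and 4, and 274 to 1126 when 1 sample was left out, highest without PAMH replicate 3. The 8 list genes called became 4 with the replicate block, 27 without PAMH replicates 3 and 4, and 5 to 23 with 1 sample left out. The replicate block ended the calls of Fbxo32, Foxo1, Gabarapl1, Ccng2, Bnip3 and Sec13. The titles do not say that replicate numbers pair samples across the groups, so the main fit had no block. Same-numbered samples had correlations of deviations between -0.19 and 0.16, and 1 of 5 control samples correlated best with its own number. With so few samples these values cannot decide whether the numbers pair them. No pair of members passed by Pearson's r under any setting run. Over single genes named, 19 of the alternative values turned in sign, none of a called gene. Foxo4 was at 0.011 with sample sums made equal, 0.017 without PAMH replicates 3 and 4, and -0.061 to 0.0052 with 1 sample left out. Akt2 was at -0.087 with median ratio scaling, -0.14 with quantile normalization, -0.0096 without mitochondrial genes, -0.087 without PAMH replicates 4 and 5, and -0.057 to 0.076 with 1 sample left out. Tnni3 was at -0.057 with median ratio scaling, -0.048 without PAMH replicates 4 and 5, and -0.055 to 0.12 with 1 sample left out. Fbxo30 was at 0.013 with sample sums made equal, 0.052 without PAMH replicates 4 and 5, and -0.068 to 0.020 with 1 sample left out. Eif3f was at -0.0075 with quantile normalization, Ep300 at 0.017 without PAMH replicates 4 and 5, and Irs2 at -0.031 without PAMH replicates 3 and 4. The causes were not tested. The shorter core TGTTTA lay in the windows of the same number of members (2) but in 13.4% of all windows.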
